A study of Mus musculus with 27 samples.

Results

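The cells described here are a small class of fibroblasts from the mouse aorta, 452 of 9968 fibroblasts in 4 single-cell libraries (43812 kept cells), which carried transcripts of at least 2 of the 5 genes Cilp, Sfrp4, Prg4, Hmcn2 and Dkk2. A barcode was kept with at least 500 genes, at least 1000 unique molecular identifiers (UMIs, counted transcript molecules) and at most 15% mitochondrial UMIs. It counted as a fibroblast with at least 10 UMIs of Col1a1, Col1a2, Col3a1 and Dcn together and with no UMI of Ptprc, Pecam1 or Myh11, the markers of leukocytes, endothelium and smooth muscle. Each fibroblast was scored for the number of genes detected in 4 sets of 5 genes. Set A was Pi16, Cd248, Sema3c, Gfpt2 and Has1, set B was Fmod, Comp, Thbs4, Col8a1 and Cpxm2, set C was Penk, Cxcl14, Ccl11, Inmt and Sult1e1, and set D was the 5 genes above. A member had at least 2 genes of set D and more genes of set D than of A, of B and of C, so the level of every gene of these sets in members is a property of the choice and is only described; in bulk RNA, which the rule did not use, these genes are tested. By the same rule 3848 fibroblasts fell in class A, 1570 in class B and 571 in class C.

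The study compared mice on a C57BL/6 background whose genotypes the labels give only as Cre and TKO, with no word on the driver of Cre or on what TKO lacks; the series title names a KLF10 and IL-9 axis in CD4+ T cells. All 27 samples came after 28 days of infusion of angiotensin II (Ang II), a peptide that raises blood pressure, and no group went without it. Digested non-stripped aorta gave 2 single-cell libraries of each genotype. Bulk RNA came from 3 Cre and 3 TKO samples of non-stripped aorta, from 4 Cre and 2 TKO samples labelled stripped aorta (whose titles read nonstripped) and from 3 Cre and 3 TKO samples of fibroblasts isolated from the aorta. A further bulk set held non-stripped aorta of TKO mice only, 3 given IgG and 2 given an anti-IL-9 antibody beside Ang II. The labels do not say whether replicates were separate animals, so the p-values measure the spread between these samples, which may in part be technical. With few samples, edgeR takes part of that spread from all genes together, and in the class by genotype test below nearly all of it.

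Adventitial fibroblasts build the outer coat of an artery and are not one population: they differ in the matrix they secrete, in the Wnt inhibitors they release and in their position. Cilp encodes cartilage intermediate layer protein, a secreted matrix protein that can bind TGF-beta. Sfrp4 encodes a secreted frizzled-related protein and Dkk2 a dickkopf protein, both secreted modulators of Wnt signalling. Prg4 encodes lubricin, the boundary lubricant of joints, and Hmcn2 encodes a hemicentin, a very large extracellular matrix protein. In the GRCm38 annotation Cilp lies on chromosome 9 (65265180 to 65280605), Sfrp4 on chromosome 13 (19623104 to 19632994), Prg4 on chromosome 1 (150449412 to 150466165), Hmcn2 on chromosome 2 (31314415 to 31460738) and Dkk2 on chromosome 3 (132085292 to 132180304), so no pair of them is neighbouring.

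Members numbered 149 and 42 in the Cre libraries and 186 and 75 in the TKO libraries. Their median depth was 2056, 1621, 1443.5 and 1449 UMIs, against 2443.5, 1488.5, 1473 and 1343 UMIs in all other fibroblasts. Summed over members the libraries held 357383, 71641, 317930 and 112359 UMIs, so Cre replicate 2 is the least precise and Cre replicate 1 the deepest per cell. Pairs of libraries shared 12 to 68 kept barcodes. No doublet caller was run; a doublet with a leukocyte, an endothelial or a smooth muscle cell is dropped by the rule when it shows 1 UMI of that marker.

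The members' transcripts of the defining genes were uneven between genes and libraries. Cilp was detected in 73.2% and 42.9% of Cre members and in 46.2% and 44.0% of TKO members, against 2.9% to 7.1% of the other fibroblasts. Hmcn2 was detected in 73.8% and 35.7% of Cre members and in 41.4% and 30.7% of TKO members, against 2.9% to 10.96% of the others. Cre replicate 1 stood above the other 3 libraries for both. Dkk2 was found in 42.3% and 59.5% of Cre members and in 26.3% and 40% of TKO members, against 4.0% to 11.02% of the others. Prg4 was found in 55.0%, 38.1%, 54.8% and 52.0% of members in the same order, against 12.7% to 17.8% of the others. Sfrp4 was found in 65.8%, 95.2%, 79.6% and 88.0% of members, but also in 23.7% to 29.5% of all other fibroblasts, the highest share of the 5 genes outside members in each library. In summed CPM Prg4 differed least, at 792, 879, 720 and 881 in members against 247, 236, 248 and 321 in the others. The same genes were read in Ptprc-positive cells. There Sfrp4 was found in 1.27% and 1.04% of cells in Cre and in 8.35% and 3.30% in TKO, at 3.59, 4.86, 45.5 and 19.2 CPM (UMIs summed over the cells and scaled to a total of 1000000), so its level in leukocytes differed between libraries. Cilp, Hmcn2 and Dkk2 were each found in under 1% of them in every library. Prg4 was found in 3.07%, 3.12%, 3.30% and 1.89% of them and differed in kind, with 3020 UMIs in 172 positive cells of Cre replicate 1 against 283 UMIs in 82 positive members of that library.

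**Figure D1:**
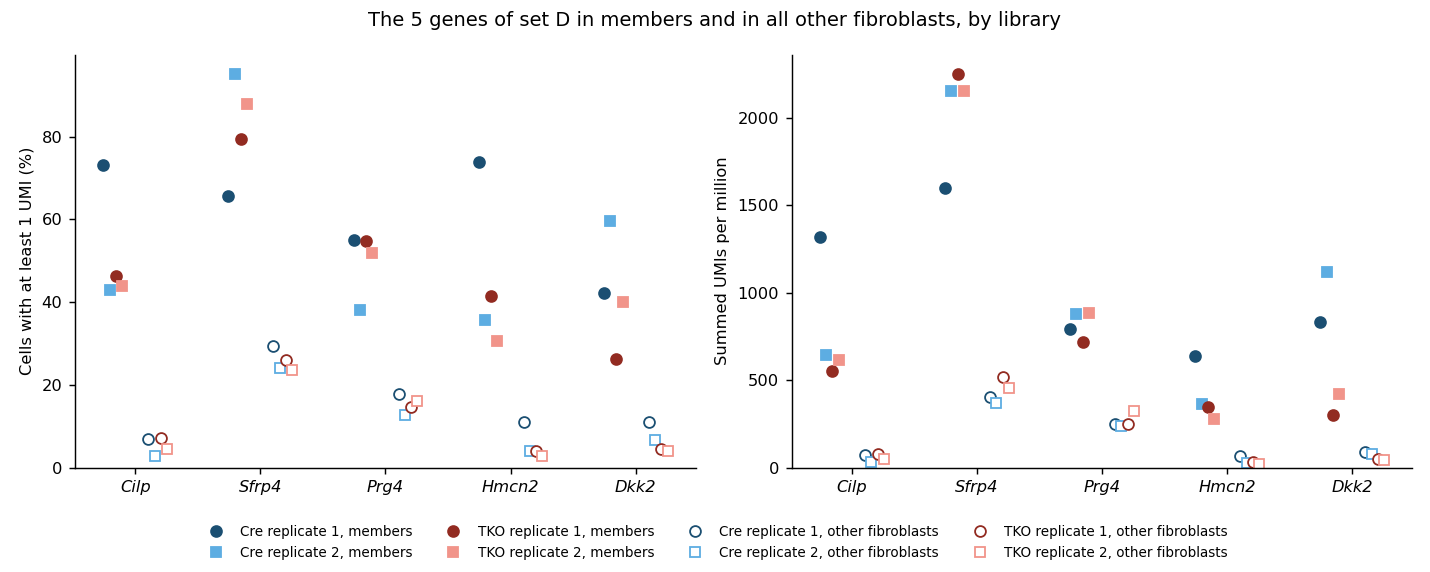
Percent of cells with at least 1 UMI (left) and summed UMIs as CPM (right) for the 5 set D genes; filled symbols are members, open symbols all other fibroblasts, 1 symbol per library. Cilp and Hmcn2 were found in 2.9% to 10.96% of other fibroblasts, while Sfrp4 was present in 23.7% to 29.5% of them.

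Summed over members, Cilp stood at 1321 and 642 CPM in Cre and at 550 and 614 CPM in TKO, and Hmcn2 at 641 and 363 CPM in Cre and at 346 and 276 CPM in TKO. Both TKO libraries lay below both Cre libraries for each gene, by little except against Cre replicate 1. Dkk2 stood at 834 and 1117 CPM in Cre members and at 302 and 418 CPM in TKO members, likewise lower in both TKO libraries. How many of all genes separate the libraries in this way was not counted. In the other fibroblasts Dkk2 was also lower in both TKO libraries, at 87.4 and 77.4 CPM in Cre and 50.7 and 45.5 CPM in TKO. Sfrp4 stood at 1598 and 2150 CPM in Cre members and at 2249 and 2154 CPM in TKO members, where Cre replicate 2 and TKO replicate 2 were level. Prg4 (792 and 879 CPM, then 720 and 881 CPM) overlapped.

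Members were heterogeneous in which of the genes they carried. Of the 452, 226 had exactly 2 genes of set D, 141 had 3, 71 had 4 and 14 had all 5. The most frequent combination was Sfrp4 with Prg4 and nothing else, in 84 members, and it made up 27.4% and 24.0% of members in TKO against 7.38% and 9.52% in Cre. Cilp with Sfrp4 alone came next, in 35 members. Sfrp4 and Prg4 were also the genes of set D found most often in the other fibroblasts. The part of free RNA in the combination of Sfrp4 with Prg4 was not tested. Members with at least 3 genes made up 69.8% and 54.8% of members in Cre and 38.2% and 37.3% in TKO. Those with Cilp or Hmcn2 among their genes made up 88.6%, 64.3%, 64.0% and 60.0%. Depth moved with the number of genes detected in both Cre libraries. In Cre replicate 1 the median was 1666 UMIs in members with 2 genes and 3658 in members with 5. In Cre replicate 2 the median was 1418 UMIs with 2 genes, 1519 with 3 and 2081 with 4. Depth did not move so steadily in TKO: members with 3 genes had a lower median than those with 2 in both libraries (1372.5 against 1429 UMIs and 1236 against 1462 UMIs).

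The share of fibroblasts in the class was 4.33% (exact 95% binomial interval 3.67 to 5.06) and 3.79% (2.75 to 5.09) in Cre, and 5.34% (4.62 to 6.14) and 3.87% (3.06 to 4.83) in TKO. These intervals cover counting error only. The mean was 4.06% ± 0.38 (SD, n = 2) in Cre and 4.61% ± 1.04 (SD, n = 2) in TKO, a difference of 0.55 percentage points within the spread between libraries (two-sided exact permutation test, p = 0.667; the smallest p that 2 against 2 allows is 0.333). The direction turned with the form of the rule. With at least 3 genes of set D required, the share was 3.02% and 2.08% in Cre and 2.04% and 1.45% in TKO. With every cell thinned to 1000 UMIs it was 4.65% and 4.50% in Cre and 4.61% and 4.23% in TKO, and with both changes 2.07% and 2.01% against 1.02% and 1.26% (difference -0.90 points, exact permutation p = 0.333, the smallest possible; this combination was chosen after seeing the data). Ptprc-positive cells are no fibroblasts by the rule, and its set D part passed 3 of 5604 Ptprc-positive cells in Cre replicate 1, 3 of 2594 in Cre replicate 2, 41 of 5356 (0.765%) in TKO replicate 1 and 3 of 2334 in TKO replicate 2. Ptprc-positive cells with 10 or more UMIs of Col1a1, Col1a2, Col3a1 and Dcn together were left out of these counts. Free RNA and doublets with fibroblasts below that cut cannot be told apart in these cells. Their part in the TKO replicate 1 share was not tested. Without that library the difference was -0.19 points.

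**Figure D2:**
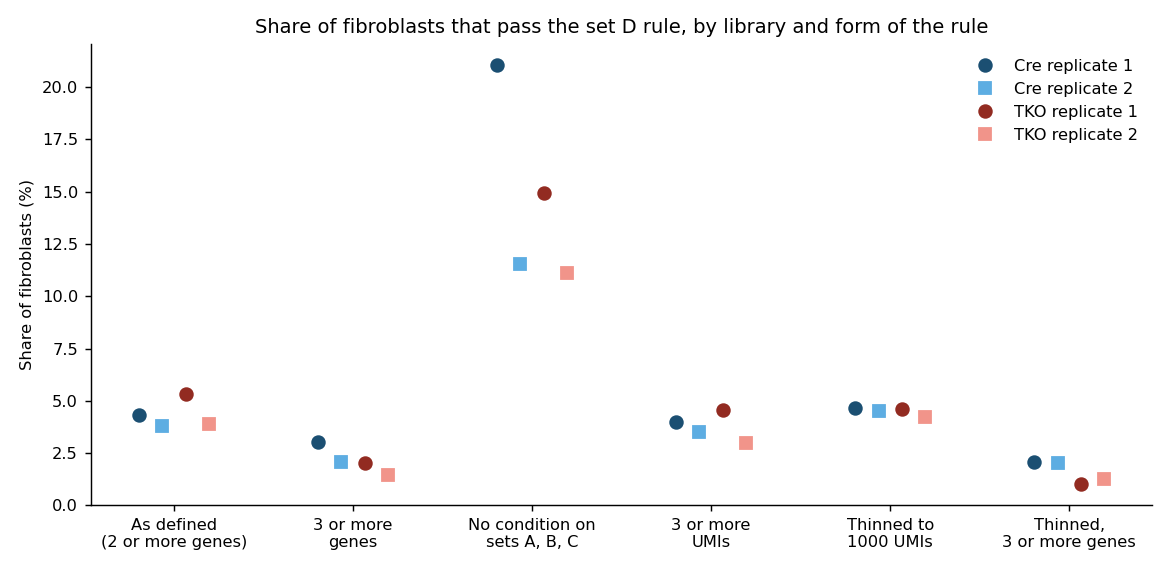
Share of fibroblasts (percent) that pass the set D rule under 6 forms of the rule, 1 symbol per library. As defined, Cre and TKO overlap at 3.79% to 5.34%; with thinning to 1000 UMIs and at least 3 genes required, both TKO libraries (1.02% and 1.26%) lie below both Cre libraries (2.07% and 2.01%).

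At the edge of the rule stood 149 fibroblasts with 1 gene of set D and none of the other sets, and 435 with at least 2 genes of set D tied with another set. Sfrp1, which the rule did not use, averaged 576 CPM over the 4 libraries in members with 2 genes, 413 CPM in the tied cells and 242 CPM in cells with 1 gene. Aspn averaged 1003, 1474 and 485 CPM in the same order, so the tied cells outside the rule exceeded the members just inside it for this gene. In members with at least 3 genes the averages were 924 CPM for Sfrp1 and 2107 CPM for Aspn. A further 317 members led the next set by only 1 gene.

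A check on the similarity of members in other genes used the 20 nearest fibroblasts of the same library in 20 principal components of 2000 variable genes, with all genes of the rule left out. Other members were 21.01% and 12.1% of a member's neighbours in Cre and 10.4% and 8.80% in TKO, where members were 4.33%, 3.79%, 5.34% and 3.87% of fibroblasts. Class A cells had 77.8%, 79.7%, 60.9% and 68.6% of their neighbours in their own class, where class A was 49.1%, 50.9%, 26.9% and 33.9% of fibroblasts. Class C cells had 47.9%, 11.03%, 11.7% and 9.22% in theirs, where class C was 12.6%, 3.52%, 1.55% and 2.32% of fibroblasts. Most neighbours of a member lay outside the class, in class A (23.3% to 42.4%) or among fibroblasts of no class (33.9% to 46.0%).

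Genes outside the rule describe the members further; since members were chosen on their expression, these ratios carry no test. The 25 with the highest ratio of mean CPM over all other fibroblasts (10 CPM added to both, detected in at least 10% of members in each library) ran from 1.78 to 0.77 on the log2 scale, and 24 of the 25 were higher in all 4 libraries. Sfrp1, a further secreted Wnt antagonist, led at 1105 and 321 CPM in Cre members and 928 and 721 CPM in TKO members, against 166, 91.2, 380 and 229 CPM in the others. Fzd4, a Wnt receptor, was at 305, 209, 132 and 178 CPM against 148, 109, 101 and 96.4 CPM. Of the 4 secreted Wnt modulators outside the rule that were detected often enough to describe, Sfrp1 and Sfrp2 (699 against 496 CPM on average) were higher in all 4 libraries, while Dkk3 (118 against 119 CPM) and Igfbp4 (1300 against 1251 CPM) were level.

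Matrix genes of several families were among the 25. Fbln7 and Fbln1, which encode fibulins, averaged 117 against 34.4 CPM and 769 against 442 CPM. Svep1, a large adhesion protein of the matrix, averaged 385 against 186 CPM. Pcolce, which enhances the maturation of procollagen, averaged 707 against 332 CPM. Aspn (asporin, a small leucine-rich proteoglycan) averaged 1602 against 772 CPM, and 6 of the 7 members of that family with enough signal were higher in all 4 libraries (median log2 ratio 0.33), where 215 of all 1920 genes described were (median -0.003). General fibroblast genes (6 of 11, median 0.29) and fibrillar and fibril-associated collagens (3 of 8, median 0.27) had similar medians. Of the small leucine-rich proteoglycans, Podn averaged 145 against 81.4 CPM and Bgn 2294 against 1741 CPM. Tgfbi, Postn and Thbs3, secreted adhesion proteins, averaged 255, 1045 and 133 CPM against 101, 523 and 65.8 CPM. Hspg2 (perlecan, a heparan sulphate proteoglycan of basement membranes) was higher in members at 236 against 132 CPM, while 2 of 13 basement membrane genes were higher in all 4 libraries, a share near that of all genes described, and the list's median ratio was -0.17.

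The remainder of the 25 held secreted factors and enzymes. Angptl1, an angiopoietin-like secreted protein, averaged 590 against 213 CPM, and Gpx3, the secreted glutathione peroxidase, 863 against 403 CPM. Fgf7, a growth factor for epithelium, averaged 97.6 against 41.6 CPM, Gas6, a ligand of TAM receptors, 472 against 273 CPM, and Lbp, which binds lipopolysaccharide, 163 against 67.0 CPM. Mmp3, the stromelysin protease, averaged 535 against 231 CPM but ranged from 251 to 1176 CPM between libraries. Complement C4b averaged 522 against 284 CPM, the protease inhibitor Serpina3n 263 against 125 CPM and Cd44, a hyaluronan receptor, 205 against 105 CPM. Fap, a surface protease of activated stroma, averaged 102 against 55.8 CPM. Gas1 (1042 against 507 CPM), Gem (164 against 77.6 CPM), Olfml3 (176 against 92.8 CPM) and Tmod2 (129 against 70.9 CPM) completed the list.

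**Figure D3:**
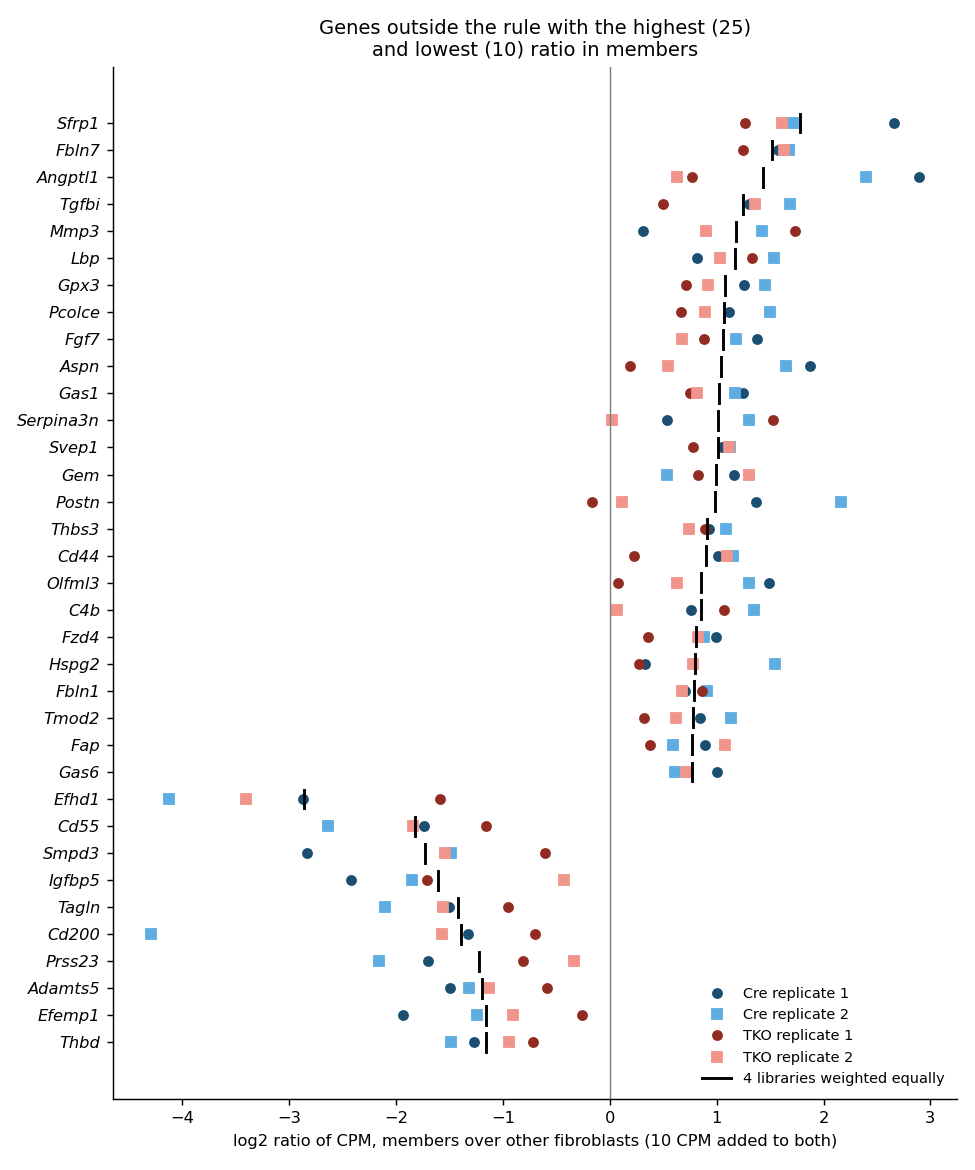
log2 ratio of CPM in members over all other fibroblasts (10 CPM added to both) for the 25 genes outside the rule with the highest and the 10 with the lowest ratio; each symbol is a library and the black bar weights the 4 equally. All but Postn keep 1 side of 0 in the 4 libraries, and Sfrp1 leads at 1.78.

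Members exceeded classes A, B and C in mean CPM for 21 of these 25 genes. The next class was C for 11 of them, B for 10 and A for 4. Gpx3 was higher in class C (1247 CPM), Olfml3 and Gas6 in class B (215 and 491 CPM), and C4b in class C (544 CPM). The 10 lowest genes were lower in members in all 4 libraries, and 8 of the 10 peaked in class A. Efhd1 averaged 9.002 CPM in members and 244 CPM in class A, Cd55 (an inhibitor of complement) 111 and 759 CPM, and Igfbp5 (an insulin-like growth factor binding protein) 1586 and 7940 CPM. Tagln and Cd200, the exceptions, peaked in class B at 557 and 453 CPM against 83.2 and 87.8 CPM in members.

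General fibroblast genes outside the rule were present in members. Pdgfra averaged 429 CPM in members and 274 CPM in the others, Lum 1534 and 1290 CPM, and Dpt 1898 and 1555 CPM. Although Cilp and Prg4 are known from cartilage and joints, Acan, Col2a1, Col9a1, Cnmd, Matn3 and Snorc had no UMI in members of any library, and the 12 chondrocyte and tendon markers together summed to 35.6 to 69.8 CPM. Mesothelial markers (14 genes) summed to 39.2 and 544 CPM in Cre members and 91.2 and 142 CPM in TKO members, and Cdh1 and Upk1b were at 0 in 4 and 3 libraries. Endothelial markers (10 genes) summed to 64.4 to 279 CPM. Erythrocyte markers (5 genes) were far higher, at 11920 and 25963 CPM in Cre members and 28267 and 23994.5 CPM in TKO members. In the other fibroblasts they summed to 12289.5 and 17582, then 30967 and 23438 CPM. Adipocyte markers (10 genes) summed to 112 and 893 CPM in Cre members and 371 and 1433 CPM in TKO members. Schwann and neural markers (10 genes) summed to 56.6 to 140 CPM. The part of free RNA in these sums was not tested.

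Between genotypes, members differed in 1 of 3466 genes tested (0.0289%; edgeR quasi-likelihood test on summed UMIs, Benjamini-Hochberg adjusted p under 0.05), and 126 had an unadjusted p under 0.05. The gene was Jchain, the joining chain of secreted antibodies, a gene of plasma cells: 25.2 and 14.0 CPM in Cre members and 1217 and 1050 CPM in TKO members (log2 difference 5.63 ± 0.48 SE, edgeR adjusted p = 3.09e-05). It rested on 3 cells. In TKO replicate 1, 384 of 387 Jchain UMIs lay in 2 members, and in TKO replicate 2, 116 of 118 lay in 1 member. Without fibroblasts of 20 or more antibody UMIs, an alternative chosen after seeing the data, no gene passed in edgeR (121 at an unadjusted p under 0.05). On counts simulated for this comparison the same test recovered 15.2% of 2-fold and 60.5% of 4-fold changes over 3080 genes.

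The genes with the next smallest p did not pass. On the higher side in TKO stood Epha3 (33.6 and 0 CPM in Cre, 151 and 89.0 CPM in TKO), Ets1 (16.8 and 69.8, then 120 and 125 CPM), Tagln (44.8 and 41.9, then 157 and 89.0 CPM), Cdkn1a (92.3 and 27.9, then 176 and 240.3 CPM) and H2-Q4 (56.0 and 55.8, then 129 and 169 CPM). Smooth muscle and pericyte markers moved with these values: the 15 genes summed to 621 and 419 CPM in Cre members and 1022 and 854 CPM in TKO members, with Myh11 at 0 by the rule, and their part in the Tagln values was not tested. The rise was not particular to members. In the other fibroblasts these markers summed to 818 and 783 CPM in Cre and 1420 and 1111 CPM in TKO, and Tagln was at 145 and 213, then 314 and 283 CPM. Immune markers (13 genes) summed to 627 and 1717 CPM in Cre and 1595 and 2047 CPM in TKO. On the lower side stood Myoc (386 and 83.8 CPM in Cre, 50.3 and 0 CPM in TKO, edgeR adjusted p = 0.41), which encodes myocilin, and Snhg18 (210 and 69.8, then 53.5 and 44.5 CPM). Penk, Dkk2 and Thbs4, the other 3 with the smallest p on that side, are genes of the rule: Penk was at 274 and 97.7 CPM in Cre members and 22.0 and 53.4 CPM in TKO members, and Thbs4 at 487 and 279 CPM and 182 and 116 CPM.

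None of the 25 genes of the profile passed between genotypes in members; 7 of the 25 had a log2 difference above 0, and the median was -0.43 against 0.00 over all genes tested. Beyond Jchain, no gene of the lists for matrix, Wnt, TGF-beta, IGF or cytokine genes passed. Secreted Wnt modulators had a median of 0.19 over 6 genes tested, with Sfrp2 at 0.79, and the 7 Wnt ligands, receptors and targets had a median of -0.58, with Fzd4 at -0.83. The 26 genes of TGF-beta, BMP and activin signalling had a median of -0.26, with Tgfb2 at -1.12. The 20 genes of hemicentins, fibulins and elastic fibres had a median of -0.21, and the 11 of the IGF axis 0.26. Immediate early and dissociation genes had 21 of 24 values above 0 and a median of 0.35, with Nr4a1 at 1.03, Atf3 at 0.93 and Fos at 0.70, and none passed. Klf10 in members was at 89.5 and 27.9 CPM in Cre and 50.3 and 35.6 CPM in TKO, on 32, 2, 16 and 4 UMIs. Il33, the alarmin of stromal cells, was at 319 and 69.8 CPM in Cre and 296 and 169 CPM in TKO. Il9 and its receptor Il9r had no UMI in any member, which allows up to 8.39 and 41.9 CPM in the Cre libraries and 9.44 and 26.7 CPM in the TKO libraries (3 UMIs of each total).

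Whether the genotypes differed in another way in members than in the other fibroblasts of the same libraries was tested as a class by genotype term. For this term edgeR took nearly all of the spread from all genes together. A small p here does not measure how far that gene varied between its own libraries. Of 10098 genes, 31 passed (0.307%; edgeR quasi-likelihood test, adjusted), 10 with a higher (0.099%) and 21 with a lower (0.208%) TKO to Cre ratio in members. On counts simulated for this comparison the same test recovered 5.62% of 2-fold and 28.3% of 4-fold changes over 9448 genes. In the other fibroblasts alone none of 12489 genes passed between genotypes (666 at an unadjusted p under 0.05). Of the 31, 5 were genes of the rule (Col8a1, Thbs4, Comp and Cpxm2 of set B, Inmt of set C), whose level in members the choice of members set; they stay in the count because the fit covers all genes, and nothing is read from them. Outside the rule 26 genes passed, 9 higher and 17 lower, and 5 of the 9 encode antibody chains or Jchain. DESeq2 kept 4 of the 26, Ndnf, Angptl1, Postn and Jchain.

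Among the lower genes outside the rule, Ndnf had the smallest p. Ndnf, a secreted neurotrophic factor, was at 299 and 83.8 CPM in Cre members and 120 and 107 CPM in TKO members, while in the other fibroblasts it was at 12.5 and 34.0 CPM in Cre and 108 and 149 CPM in TKO (difference -3.86 ± 0.35 SE, edgeR adjusted p = 1.31e-23). Taken alone, neither class passed between genotypes for Ndnf. The TKO minus Cre difference was -0.94 in members and 2.55 in the other fibroblasts (edgeR adjusted p = 0.57 in the latter). The Ndnf difference did not hold without Cre replicate 1 (-1.16, edgeR adjusted p = 0.94).

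Angptl1 was at 781 and 475 CPM in Cre members and 563 and 543 CPM in TKO members, against 96.4 and 81.8 CPM and 327 and 347 CPM in the others (difference -2.12 ± 0.30 SE, edgeR adjusted p = 8.52e-10), and it passed under all 11 alternatives run. Postn, which encodes periostin, was at 686 and 2136 CPM in Cre members and 550 and 810 CPM in TKO members, against 259 and 468 CPM and 618 and 748 CPM in the others (difference -1.79 ± 0.28 SE, edgeR adjusted p = 1.34e-07). Without TKO replicate 1 the Postn difference was -1.68 with an edgeR adjusted p of 0.20. Aspn was at 2057 and 1801 CPM in Cre members and 1135 and 1415 CPM in TKO members, against 555 and 569 CPM and 996 and 967 CPM in the others (-1.41 ± 0.27 SE, edgeR adjusted p = 0.00016; DESeq2 adjusted p = 0.064; it missed the threshold without either TKO library). Angptl1, Aspn and Postn are 3 of the 25 genes of the profile, and the ratio of members to other fibroblasts was larger in Cre than in TKO for each. The other fibroblasts include class B, which the rule keeps out of members. There Angptl1 was at 125 and 302 CPM in Cre and 636 and 975 CPM in TKO. Aspn was at 737 and 1043, then 1551 and 1915 CPM, and Postn at 140 and 763, then 933 and 1447 CPM. A change in members and a change in the other classes cannot be told apart in these ratios.

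Further genes below 0 were Piezo2 (-2.25 ± 0.37 SE), a mechanically gated ion channel, Fibin (-2.12 ± 0.38 SE), Palld (-1.74 ± 0.36 SE), an actin-binding protein, C1qtnf3 (-3.40 ± 0.46 SE) and Ecrg4 (-2.57 ± 0.48 SE), with edgeR adjusted p from 3.27e-10 to 0.00079. C1qtnf3 turned to 0.34 and Ecrg4 to 0.04 without Cre replicate 1, and Piezo2, Fibin and Palld missed the threshold without that library. Piezo2 also missed it without TKO replicate 1, Fibin and Ecrg4 without TKO replicate 2, and Palld without either TKO library. In Cre, 7 of the 9 named genes outside the rule were higher in members than in the other fibroblasts in both libraries; in TKO it was 4 of 9. Class B cells were above members in both TKO libraries for all 9 genes and in both Cre libraries for 1. Class B held 5.37% and 7.22% of fibroblasts in Cre and 26.1% and 20.5% in TKO, and its part in these differences was not tested. Against class A alone, an alternative chosen after seeing the data, 14 of the 26 genes outside the rule still passed. They included the 5 that encode antibody chains or Jchain. Ndnf was at -3.56 (class A levels 4.84 and 3.98 CPM in Cre, 20.95 and 33.1 CPM in TKO), Angptl1 at -1.30, Postn at -1.61 and Aspn at -1.01. The floor of 3 UMIs in class A of Cre replicate 2 was 2.98 CPM.

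**Figure D4:**
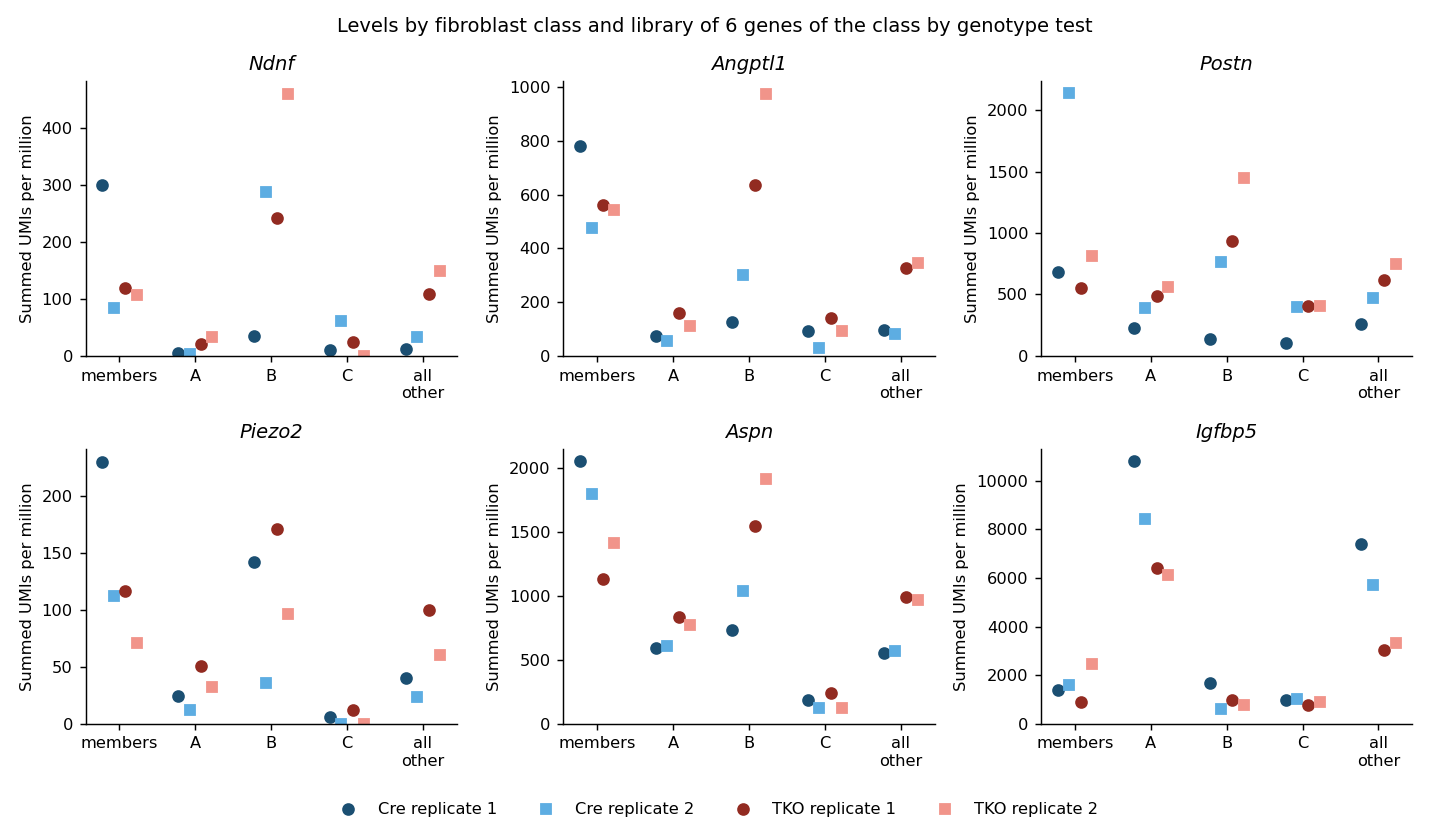
Summed UMIs as CPM of Ndnf, Angptl1, Postn, Piezo2, Aspn and Igfbp5 in members, in classes A, B and C and in all fibroblasts that are not members, 1 symbol per library. For Angptl1 the Cre members (781 and 475 CPM) lie above every class, while in TKO class B (636 and 975 CPM) lies above the members (563 and 543 CPM).

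The higher group outside the rule and the antibody genes held 4 genes. Igfbp5 was at 1377 and 1577 CPM in Cre members and 915 and 2474 CPM in TKO members, against 7398 and 5711 CPM and 3020 and 3328 CPM in the others (1.10 ± 0.28 SE, edgeR adjusted p = 0.029). It did not pass without TKO replicate 1 (1.71) or without TKO replicate 2 (0.52). Nor did it pass in DESeq2 (1.10) or against class A alone (0.69, edgeR adjusted p = 0.81). Igfbp5 averaged 7940 CPM in class A. That class held 49.1% and 50.9% of fibroblasts in Cre and 26.9% and 33.9% in TKO, and its part in this difference was not tested. Cxcl13, a chemokine that attracts B cells, was at 36.4 and 69.8 CPM in Cre members and 72.3 and 285 CPM in TKO members, against 429 and 139 CPM and 202 and 91.3 CPM in the others (2.94 ± 0.45 SE, edgeR adjusted p = 8.32e-08; 1.52 and not passed without TKO replicate 2, 1.07 and not passed without Cre replicate 1). Col6a5 (3.32 ± 0.49 SE) and Chl1 (2.93 ± 0.69 SE) were high in members of TKO replicate 1 only, at 270.5 and 248 CPM against at most 35.6 CPM in any other library, and without it Chl1 turned to -0.72 and Col6a5 (2.40) missed the threshold. Without Cre replicate 1 neither passed.

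In the bulk tables the genes were read in whole tissue or in isolated fibroblasts, where fewer cells of a type and less RNA per cell cannot be told apart. Library totals ran from 17179300 to 38633500 assigned reads. In non-stripped aorta Cilp was at 9.46, 13.6 and 11.6 CPM in Cre and 8.94, 20.04 and 37.2 CPM in TKO, and Hmcn2 at 20.2, 22.2 and 25.4 CPM in Cre and 26.4, 34.4 and 75.4 CPM in TKO. All 5 genes of set D had a TKO minus Cre difference above 0 (log2 0.46 to 1.01) and none passed, where 18 of 15162 genes did (0.119%, with 0.0594% in each direction; edgeR, adjusted). Cilp, Hmcn2, Prg4 and Dkk2 were each highest in TKO replicate 3. In that library Klf10 had no read at all (0 CPM, against 41.3 and 35.4 CPM in the other TKO libraries and 40.7 to 65.8 CPM in Cre), and without it the differences were 0.33 for Cilp, 0.43 for Hmcn2, 0.19 for Prg4, 0.15 for Dkk2 and 0.88 for Sfrp4, none passed. Sfrp4 was at 13.3, 7.76 and 8.50 CPM in Cre and 17.1, 19.3 and 12.4 CPM in TKO. Endothelial markers summed to 1038 to 1176 CPM in Cre and 828 to 925 CPM in TKO, and their part in these values was not tested.

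In stripped aorta set D levels in CPM were higher than in non-stripped aorta, though the tables were prepared separately and are not tested against each other. Sfrp4 was at 406.2, 278, 243 and 154 CPM in Cre and 456 and 238 CPM in TKO. Prg4 was at 87.9, 131, 70.5 and 112 CPM in Cre and 199 and 134 CPM in TKO (log2 difference 0.73 ± 0.26 SE, edgeR adjusted p = 0.29). No gene of the set passed, where 4 of 16688 genes did (0.024%, with 0.012% in each direction). The adipocyte markers (10 genes) moved with genotype, with sums of 2346 to 5299 CPM in Cre and 7955 to 9127 CPM in TKO, as did mesothelial markers (91.5 to 228 CPM in Cre, 38.8 to 51.9 CPM in TKO) and Schwann and neural markers (153 to 327 CPM, then 334 to 636 CPM). Smooth muscle and pericyte sums were 9261 to 10496 CPM in Cre and 5997 to 8422 CPM in TKO. The part of these markers in the set D values was not tested.

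Isolated fibroblasts had low levels of the set apart from Prg4. Cilp was at 2.80, 4.05 and 4.44 CPM in Cre and 6.21, 4.50 and 5.55 CPM in TKO (log2 difference 0.53 ± 0.22 SE, edgeR adjusted p = 0.39), and Hmcn2 at 9.87, 11.3 and 14.99 CPM in Cre and 9.57, 6.16 and 9.76 CPM in TKO (-0.50 ± 0.22 SE, adjusted p = 0.42). The differences of these genes had opposite directions. Immune markers summed to 864 to 2405 CPM in Cre and 527 to 741 CPM in TKO, and general fibroblast genes to 4082 to 6168 CPM and 6114 to 8727 CPM, and their part in these values was not tested. No gene of the set passed, where 10 of 15673 did (0.0638%, with 0.0319% in each direction). In these 3 tables none of the 25 genes of the profile passed in edgeR; their median differences were 0.24 in non-stripped aorta, -0.01 in stripped aorta and 0.17 in isolated fibroblasts, against -0.02, 0.00 and 0.01 over all genes. Angptl1 in isolated fibroblasts was at 3.55, 1.40 and 2.53 CPM in Cre and 4.13, 6.20 and 6.48 CPM in TKO.

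With the anti-IL-9 antibody in TKO mice, Cilp and Sfrp4 were lower than with IgG. Cilp was at 22.1, 98.7 and 75.8 CPM with IgG and 20.5 and 12.1 CPM with anti-IL-9 (log2 difference -2.001 ± 0.60 SE, edgeR adjusted p = 0.042), and Sfrp4 at 71.2, 170.0 and 116 CPM and 48.5 and 16.1 CPM (-1.88 ± 0.53 SE, edgeR adjusted p = 0.0335). IgG replicate 1 lay close to the antibody group for Cilp. Cilp missed the threshold without IgG replicate 2 (-1.59), without IgG replicate 3 (-1.91) and without either anti-IL-9 library (-2.45 and -1.69), and Sfrp4 without IgG replicate 2 (-1.55), IgG replicate 3 (-1.92) or anti-IL-9 replicate 2 (-1.31). Prg4 (12.1, 54.6 and 31.4 CPM, then 14.5 and 6.12 CPM; -1.65 ± 0.63 SE, edgeR adjusted p = 0.089) and Hmcn2 (39.0, 44.5 and 42.3 CPM, then 33.9 and 16.0 CPM; -0.75 ± 0.29 SE, edgeR adjusted p = 0.091) did not pass. Dkk2 was at 12.9, 16.9 and 17.4 CPM with IgG and 13.9 and 15.3 CPM with anti-IL-9, overlapping (-0.11 ± 0.17 SE). The 2 calls in set D stood in a table where 11% of 16463 genes were called lower and 21% higher.

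**Figure D5:**
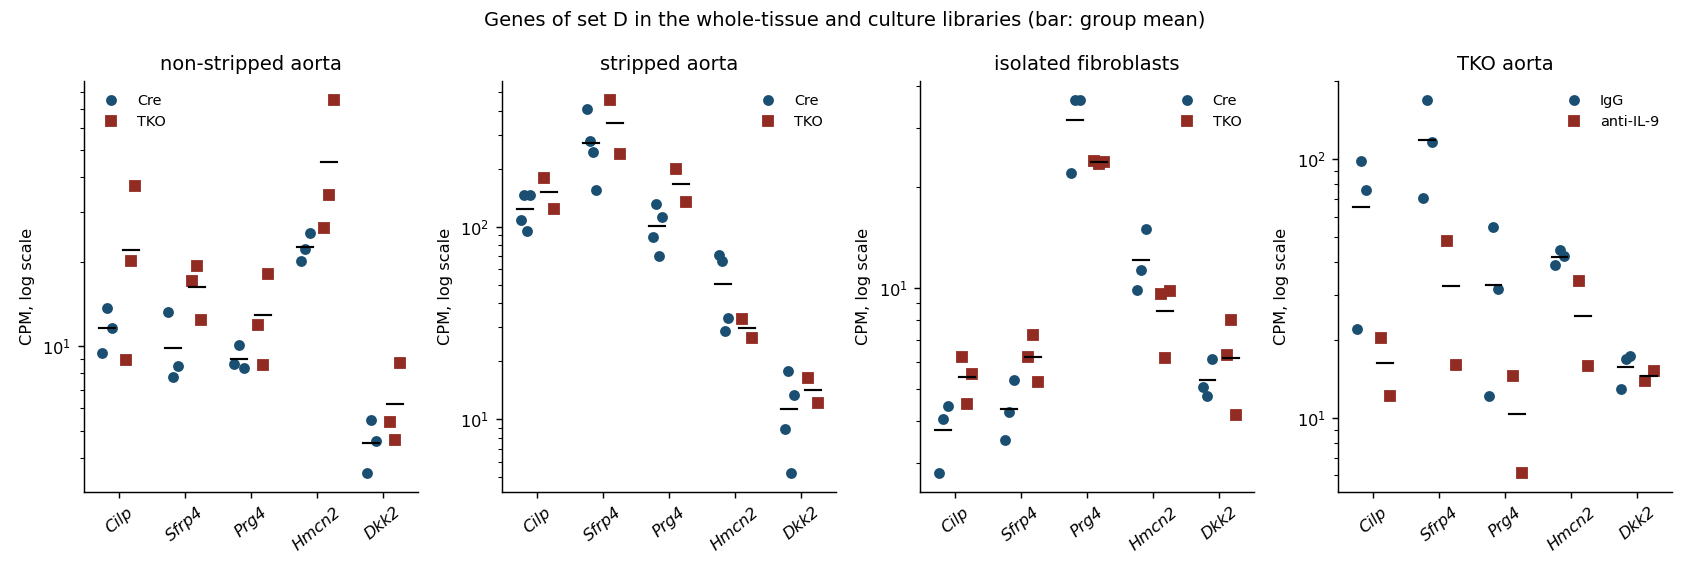
CPM on a log axis of the 5 set D genes in every bulk library, in 4 separately prepared tables; circles are Cre or IgG, squares TKO or anti-IL-9, bars group means. Sfrp4 with anti-IL-9 (48.5 and 16.1 CPM) lies below all 3 IgG libraries (71.2 to 170.0 CPM), while Dkk2 overlaps.

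Of the 25 genes of the profile, 17 fell and 1 rose with the antibody (edgeR, adjusted), where 11% of all 16463 genes fell and 21% rose. Their median was -1.31 against -0.01 over all genes. Angptl1 fell from 14.4, 24.4 and 16.6 CPM to 3.20 and 1.31 CPM (-3.00 ± 0.41 SE, edgeR adjusted p = 0.0018). Fbln1 fell from 96.1, 108 and 130 CPM to 26.9 and 22.4 CPM (-2.18 ± 0.18 SE, edgeR adjusted p = 0.00023). Both held with each library left out in turn, and in both the groups lay far apart. C4b (-2.07 ± 0.31 SE), Svep1 (-2.03 ± 0.42 SE), Lbp (-1.91 ± 0.25 SE), Aspn (-1.75 ± 0.44 SE) and Sfrp1 (-1.53 ± 0.44 SE) fell as well, of which Svep1, Aspn and Sfrp1 missed the threshold without either anti-IL-9 library and Sfrp1 also without IgG replicate 3. Tmod2, a capper of actin filaments, rose (2.52 ± 0.18 SE) from 26.3, 19.5 and 23.4 CPM to 150 and 114 CPM. Postn (-1.31 ± 0.49 SE, edgeR adjusted p = 0.085) did not pass.

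This shift covered fibroblast genes at large. Of 17 general fibroblast genes 13 fell, where 11% of all genes tested fell and 21% rose. Their median was -1.49, and their sum was 6235 to 13666 CPM with IgG and 2391 to 3260 CPM with anti-IL-9. Mesothelial markers (12 of 13 lower, 1 higher, median -3.58) and endothelial markers (8 of 10 lower, median -0.91) moved the same way. Adipocyte markers had 5 of 10 lower (median -0.88). Immune markers had 6 of 13 lower and 1 higher (median -0.80). Schwann and neural markers were higher in 9 of 10 (median 2.18; sums of 295 to 486 CPM with IgG and 2365 to 2390 CPM with anti-IL-9), as were 9 of 15 smooth muscle and pericyte markers, with 2 lower (median 0.90). The part of this change in tissue makeup in the set D values was not tested.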

How the data were processed

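Single-cell UMI counts were deposited as whole numbers per gene and barcode, written by Cell Ranger 6.0.0 per the file headers; the barcode filter was not given in the sources used. Bulk counts per gene were deposited by the authors as raw counts; per the submitters' processing notes the tools were Trimmomatic 0.36, STAR 2.5.2b and featureCounts (Subread 1.5.2) with GRCm38. A row with no gene name (at most 0.0025% of reads) was left out, and 1 column matching no sample was not used. The members and gene lists were chosen with earlier results of these data known. UMIs were summed per library and class, and CPM scales summed UMIs, or TMM-scaled bulk reads, to a total of 1000000. Genes were tested with edgeR 4.0.16 (quasi-likelihood, TMM, filterByExpr, Benjamini-Hochberg at 0.05) on counts; DESeq2 1.42.0 was an alternative, with RLE scaling, a filter of 1 count, stricter members, a replicate block and each library left out. The tests were tried on simulated counts. Genes named in the text were the rule genes, the 25 highest and 10 lowest ratios, and per test and direction up to 12 genes past the threshold (or the 5 smallest p); predicted, mitochondrial and antigen receptor genes were not named. Intervals and floors of 3 counts cover counting error only. Gene positions are from GENCODE vM21.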

Additional observations from a re-analysis of the deposited data

Results flagged for a closer look

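In groups of 4 samples, the stripped Cre aortas, the lowest or highest library stood apart from the other 3 for 2 of 30 gene and group combinations checked; chance flags about 1 in 20. Cd44 was at 120.2 CPM in Cre replicate 2 against 91.2 to 95.8 CPM in the other 3. Olfml3 was at 174 CPM in Cre replicate 3 against 291 to 310 CPM.

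The named genes outside the rule whose TKO to Cre difference in members departed from that in the other fibroblasts (log2, edgeR class by genotype term) were, on the higher side, Jchain at 3.58, Col6a5 at 3.32, Cxcl13 at 2.94, Chl1 at 2.93 and Igfbp5 at 1.10. On the lower side stood Ndnf at -3.86, C1qtnf3 at -3.40, Ecrg4 at -2.57, Piezo2 at -2.25, Angptl1 at -2.12, Fibin at -2.12, Postn at -1.79, Palld at -1.74 and Aspn at -1.41.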

How the results depend on the processing

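The difference in share (0.55 points, TKO minus Cre) reversed to -0.81 with at least 3 set D genes, to -3.30 with no condition on sets A, B and C, to -0.16 with cells thinned to 1000 UMIs and to -0.90 with thinning and 3 genes; with each library left out it ran from -0.19 to 1.29. Calls between genotypes in members (1) numbered 32 with every gene of at least 1 count tested, 0 with at least 3 set D genes, 0 without cells of high depth, 0 without antibody-rich cells and 12 to 70 with a library left out. The replicate block gave 13 calls; with 2 pairs and a correlation of 0.23 the numbers are not shown to pair the samples. The 31 genes that differed between classes became 6 in DESeq2, 17 with at least 3 set D genes and 13 to 44 with a library left out. DESeq2 called 796 genes in non-stripped aorta (main 18), 577 in stripped aorta (main 4) and 417 in isolated fibroblasts (main 10); testing every gene of at least 1 count called 766, 64 and 682. Leaving out a library gave 0 to 486, 0 to 30, 3 to 10 and, with anti-IL-9 (main 5277), 3516 to 4793. With a library left out, directions reversed for Sfrp4 (-0.015 to 0.49; without Cre replicate 1) and Prg4 (-0.25 to 0.090; 0.036 without Cre replicate 2, highest without TKO replicate 1) in members, for the class differences of Chl1 (-0.72, without TKO replicate 1, to 8.29), C1qtnf3 (-5.36 to 0.34, without Cre replicate 1) and Ecrg4 (-4.51 to 0.040, without Cre replicate 1), for Cilp (-0.0019 to 0.54) and Sfrp4 (-0.18 to 0.75) in stripped aorta without TKO replicate 1, and for Dkk2 (-0.019 to 0.43) in isolated fibroblasts without TKO replicate 2. The class difference of Jchain turned to -2.21 without antibody-rich cells. The cause was not tested. Thinning with 3 genes, class A as comparator and the antibody cut were chosen after seeing the data. A left-out library leaves 1 sample in a group of 2, which is then assumed to vary like the other group. Depth limits what could be detected: Cre replicate 2 held 71641 UMIs in 42 members.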
